A study of Mus musculus with 20 samples.

Results

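Livers of ApoE-/- mice were compared with livers of wild-type mice after both had been given an antagonist of Toll-like receptors 7 and 9, to ask which expression differences between the genotypes remained under treatment. The compared groups are 10 of the 20 liver arrays of the series, 5 from treated ApoE-/- mice and 5 from treated wild-type mice. The comparison takes its estimate of the spread from all 20 arrays. It covers every probe with a detection p-value under 0.05 on at least 5 of those 10 arrays, which was met by 16276 of 45281 probes. With 1 probe kept per gene, 11715 genes and unnamed probes were tested.

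All mice were male and 14 weeks old when the livers were taken. The treated wild-type group was C57BL/6 on a high fat diet with 35% fat and 0.03% cholesterol. The treated group labelled ApoE-/- received a high fat diet with 21% fat and 0.15% cholesterol, so that genotype and diet formula changed together and their parts cannot be told apart. Both diets began at week 6. Both groups received the antagonist by intraperitoneal injection at 15 mg/kg, 3 times a week from week 6 to week 11, and livers were collected after dosing had ended. The untreated groups of either genotype, also with 5 arrays each, had the same age, sex and diets and received no antagonist. The labels number the replicates and do not tie them to separate animals, so the p-values reflect variation among the arrayed samples, some of which may be technical.

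Apolipoprotein E is the surface protein by which the liver takes up remnant lipoproteins, and mice without it accumulate cholesterol-rich particles in blood and cholesterol in macrophages. Liver cells that are rich in sterol hold back the SREBP-2 transcription factor, which otherwise switches on the enzymes of cholesterol synthesis. Toll-like receptors 7 and 9 sit in endosomes, sense nucleic acids and signal through Myd88 to cytokine genes, mainly in immune cells.

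The hepatocyte secretory genes Ttr, Apoa1 and Serpina1a had mean levels at percentiles 99.6 to 99.9 of the tested genes, so the arrays carried defining transcripts of liver. The Alb probe was lower, at 7.48 to 11.03 on the treated arrays. A level is the background-corrected, quantile-normalised log2 intensity, and a difference is ApoE-/- minus wild type on that scale. Between 15816 and 18748 probes were detected on a treated array. Arrays fell into 2 batches by the form of their names, with replicates 1 to 3 of each group in batch 1 and replicates 4 and 5 in batch 2. The first principal component of the treated arrays, with 34.3% of the variance, placed the wild-type arrays at -23.6 to -11.2 and the ApoE-/- arrays at -6.7 to 31.8. On it ApoE-/- replicate 1 lay nearest to wild type, and both ApoE-/- arrays of batch 2, at 29.7 and 31.8, lay farthest away. Array means were equal within 4 sets made of genotype and batch, so that any earlier scaling step changed with genotype too.

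In treated mice 728 genes, or 6.21% of those tested, passed a Benjamini-Hochberg adjusted p of 0.05 in limma. Of these 416 (3.55%) were higher and 312 (2.66%) lower in ApoE-/- livers. A difference of more than 2-fold was reached by 110 of the higher and 46 of the lower genes. In 302 genes (2.58%) every treated ApoE-/- array lay above every treated wild-type array, and in 271 (2.31%) every one lay below. The split depended on the scaling. With arrays scaled to equal medians in place of quantile normalisation, 790 genes passed and 27.2% of them were higher, against 57.1%, while the median difference of all genes moved from -0.02 to -0.14. Within array batch 1 alone 307 genes passed (195 higher) and within batch 2 alone 716 (369 higher), while 1071 passed (579 higher) with batch as a block. At an unadjusted p under 0.05 it was 2249 genes, or 19.2%. The count was 1060 without ApoE-/- replicate 1, 459 without ApoE-/- replicate 3, 468 without ApoE-/- replicate 4 and 442 without both ApoE-/- arrays of batch 2. With the treated arrays normalised and fitted alone, without the spread of the untreated arrays, it was 360 (225 higher).

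Untreated mice, measured on other arrays in the same fit, gave 731 genes (6.24%), of which 542 (4.63%) were higher and 189 (1.61%) lower in ApoE-/- livers. The genotype difference passed in the same direction with and without treatment for 138 genes, 85 higher and 53 lower. These were 19% of the treated and 18.9% of the untreated calls. Another 8 genes passed in opposite directions. Of the 542 genes higher in untreated ApoE-/- livers, 15.7% were also called higher under treatment, and their median difference was 0.80 untreated and 0.09 treated. Of the 189 lower genes, 28% were also called lower under treatment, with medians of -0.59 and -0.22. Genes chosen by their treated call gave the mirror image. Those called higher in treated mice had medians of 0.73 treated and 0.11 untreated, and those called lower -0.55 and -0.08. Genes chosen for passing in one condition tend to differ less in the other, so these medians do not show a loss under treatment.

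The change of the genotype difference was tested itself, as the treated difference minus the untreated difference. It was above 0 for 137 genes (1.17%) and below 0 for 271 genes (2.31%). Among the 585 genes called in untreated mice alone, the change passed for 208, and among the 582 called in treated mice alone for 136. For the other genes called in a single condition a change was not shown. The total of 408 was 649 without treated ApoE-/- replicate 1 and 259 without treated wild-type replicate 4. With arrays scaled to equal medians it was 625, of which 6.7% were above 0, against 33.6%.

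**Figure D1:**
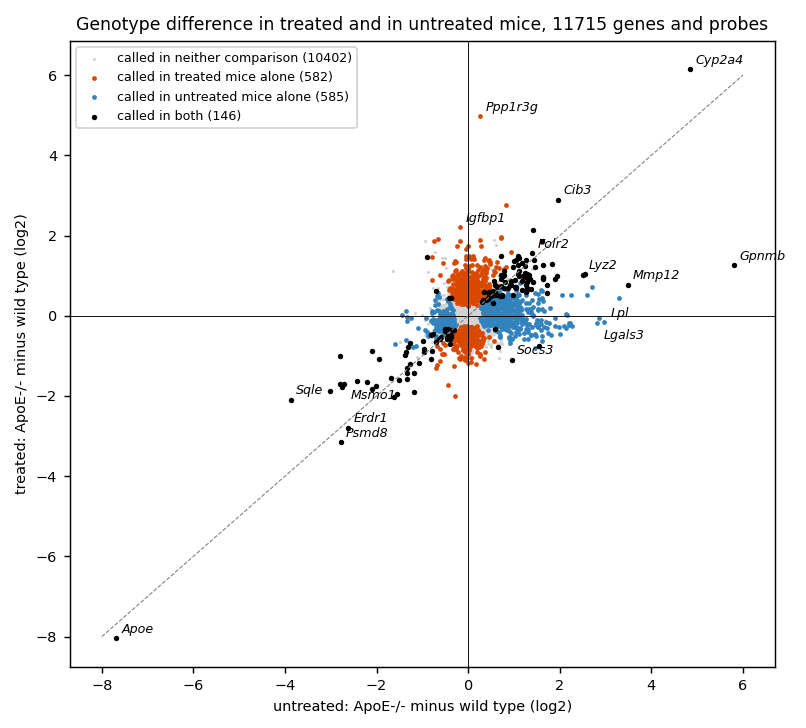
Genotype difference in untreated mice (x axis, log2) against that in treated mice (y axis, log2) for 11715 genes and probes, coloured by the comparison in which they passed; the dashed line marks equal differences. Sterol genes such as Sqle lie low on both axes, Gpnmb and Lgals3 lie far to the right near a treated difference of 1.25 and -0.18, and Ppp1r3g lies high near an untreated difference of 0.27.

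Apoe, the targeted gene, was read by 1 probe. The treated wild-type arrays had levels of 14.27, 14.51, 14.10, 13.60 and 13.69, and the treated ApoE-/- arrays 6.67, 5.98, 6.33, 5.26 and 5.74. All 10 arrays matched their labels, with no overlap, at a difference of -8.04 ± 0.25 (SE; adjusted p = 7.13e-15, limma).

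The second largest fall was in Psmd8, a subunit of the proteasome's regulatory cap, also encoded on chromosome 7. Its levels were 10.14, 10.54, 10.19, 9.87 and 9.79 in wild type and 6.94, 6.84, 7.07, 6.99 and 6.92 in ApoE-/- livers. The groups lay far apart, and the difference of -3.15 ± 0.12 (adjusted p = 4.53e-13, limma) was -2.78 in untreated mice. Clasrp, a splicing regulator located 7 annotated genes from Apoe, differed by -1.96 treated and -1.54 untreated and was detected on 2 of the 5 treated ApoE-/- arrays.

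Of the 20 annotated genes on each side of Apoe, 18 besides Apoe were tested and 4 passed in treated mice. This is 22.2%, against 6.21% of all genes. Clasrp was lower, while Trappc6a (0.52), a subunit of a vesicle-tethering complex, Nectin2 (0.63), an adhesion molecule, and Cblc (0.62), a ubiquitin ligase, were higher. Trappc6a and Nectin2 lost their calls when arrays were scaled to equal medians and within batch 2 alone, and Trappc6a also within batch 1 alone. Cblc lost its call with no background correction and with the authors' processed values. It was also lost within batch 1 alone and without both treated ApoE-/- arrays of batch 2. Within 600 genes on each side 16.1% of 199 tested genes passed, and on the rest of chromosome 7 it was 7.82% of 524.

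Sterol synthesis genes, the list with the lowest median of those examined, were lower in treated ApoE-/- livers. Of 14 measured, 12 passed as lower and none as higher, with a median difference of -1.57, against 2.66% of all genes lower. The other two, Pmvk and Tm7sf2, had differences of -0.76 and -0.71. In untreated mice 13 of the 14 were lower, with a median of -1.64, and 11 passed in both. None of the 14 passed the test of a change between conditions, and their median change was 0.47. Msmo1 (0.99, adjusted p = 0.0525, limma) and Sqle (1.78, adjusted p = 0.0636) came near the threshold. Dhcr7 (0.02) and Lss (-0.09) hardly changed. The absence of a call does not show that the differences were equal.

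Promoters of these genes are shown because their members moved together. RefSeq promoters (GRCm38.p6) were matched for 12 of the 14, and Fdps and Sqle were not matched. The window was the 200 bases before the annotated start, searched on both strands for CCAAT, the box bound by NF-Y, and for TCACNCCAC, a form of the sterol regulatory element. CCAAT was in at least 1 window of all 12 genes, and in a window of 32.7% of 27025 annotated genes. TCACNCCAC was in none of the 12 and in 1.01% of all genes. For Idi1 (chr13:8885406-8885605, plus strand), Msmo1 (chr8:64733579-64733778, minus strand), Nsdhl (chrX:72918321-72918520, plus strand) and Lss (chr10:76531405-76531604, plus strand) the windows read as follows, 5′ to 3′ along the gene, with CCAAT or its reverse ATTGG in capitals.
Idi1: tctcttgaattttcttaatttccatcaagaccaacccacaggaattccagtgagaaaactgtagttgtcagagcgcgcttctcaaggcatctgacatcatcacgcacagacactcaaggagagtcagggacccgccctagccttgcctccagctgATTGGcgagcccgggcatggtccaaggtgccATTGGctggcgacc
Msmo1: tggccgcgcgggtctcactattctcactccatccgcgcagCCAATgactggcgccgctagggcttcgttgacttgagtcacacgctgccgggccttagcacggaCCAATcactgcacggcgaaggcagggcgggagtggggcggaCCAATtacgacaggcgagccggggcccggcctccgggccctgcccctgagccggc
Nsdhl: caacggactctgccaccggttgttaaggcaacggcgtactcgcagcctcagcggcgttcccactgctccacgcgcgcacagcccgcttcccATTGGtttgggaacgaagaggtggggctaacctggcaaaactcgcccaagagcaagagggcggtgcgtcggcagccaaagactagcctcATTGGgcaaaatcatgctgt
Lss: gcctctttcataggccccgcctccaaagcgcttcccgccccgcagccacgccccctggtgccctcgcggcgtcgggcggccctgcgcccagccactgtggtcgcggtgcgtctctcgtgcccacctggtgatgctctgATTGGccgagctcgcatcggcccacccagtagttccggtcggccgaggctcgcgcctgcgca

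Sqle, squalene epoxidase, a rate-limiting step of the pathway, had the largest difference. Wild-type arrays had levels of 10.82, 11.03, 10.68, 11.27 and 10.58 and ApoE-/- arrays 8.35, 9.53, 10.03, 7.90 and 8.09. All ApoE-/- arrays lay below all wild-type arrays, replicate 3 closest and replicate 4 farthest. The difference was -2.09 ± 0.37 (adjusted p = 0.00156, limma), 4.27-fold lower. Within batch 1 alone it was -1.54 and did not pass (adjusted p = 0.0657), and within batch 2 alone it was -2.93. In untreated mice it was -3.88.

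Idi1, which isomerises the isoprenoid unit, had levels of 9.95, 9.87, 9.84, 10.33 and 9.61 in wild type and 7.89, 8.23, 8.92, 7.50 and 7.66 in ApoE-/- livers. ApoE-/- replicate 3 was again the closest to wild type, without overlap, at a difference of -1.88 ± 0.29 (adjusted p = 0.000458, limma).

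Msmo1, a demethylase of the sterol ring, had levels of 12.27, 12.34, 12.61, 12.37 and 11.99 in wild type and 10.53, 10.71, 11.46, 9.85 and 10.16 in ApoE-/- livers. Its groups did not overlap and differed by -1.77 ± 0.20 (adjusted p = 1.57e-05, limma). Fdps, which makes farnesyl diphosphate, differed by -1.71 ± 0.25 (a second, dim probe gave -0.21), and Nsdhl, which acts with Msmo1 in removing methyl groups from the ring, by -1.65 ± 0.21. Lss, which folds squalene epoxide into the first sterol, differed by -1.60 ± 0.21, and Dhcr7, the enzyme of a last step, by -1.31 ± 0.16. In these 4 genes too no ApoE-/- array reached a wild-type array.

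The untreated differences were -3.03 for Idi1, -2.76 for Msmo1, -2.71 for Fdps, -2.20 for Nsdhl, -1.51 for Lss and -1.33 for Dhcr7. The levels show where the groups stood. The Sqle means of wild type were 9.52 without and 10.88 with treatment, and those of ApoE-/- livers 5.64 without and 8.78 with it. Taken over the 14 genes and relative to each gene's mean over all arrays, the median level was 0.40 to 0.58 on untreated and 0.81 to 1.46 on treated wild-type arrays. It was -1.46 to -1.17 on untreated and -0.73 to 0.69 on treated ApoE-/- arrays. Differences between treated and untreated mice of a genotype were not tested here.

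Stard4, a sterol carrier that SREBP-2 also controls, differed by -1.08 ± 0.16 treated and -1.94 untreated, and that change passed (0.87, adjusted p = 0.038, limma). Insig2, which retains the SREBP complex in the endoplasmic reticulum, was higher by 0.93 ± 0.22 (adjusted p = 0.0145, limma). Its call was lost within batch 1 alone (0.49) and without both ApoE-/- arrays of batch 2 (0.80). Abcg5, which exports sterols into bile, had levels of 10.66, 10.16, 10.96, 10.60 and 10.96 in wild type and 11.79, 11.25, 11.74, 11.93 and 11.60 in ApoE-/- livers. It was higher on every ApoE-/- array, by 0.99 ± 0.15 treated (adjusted p = 0.000316, limma) and 0.76 untreated.

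**Figure D2:**
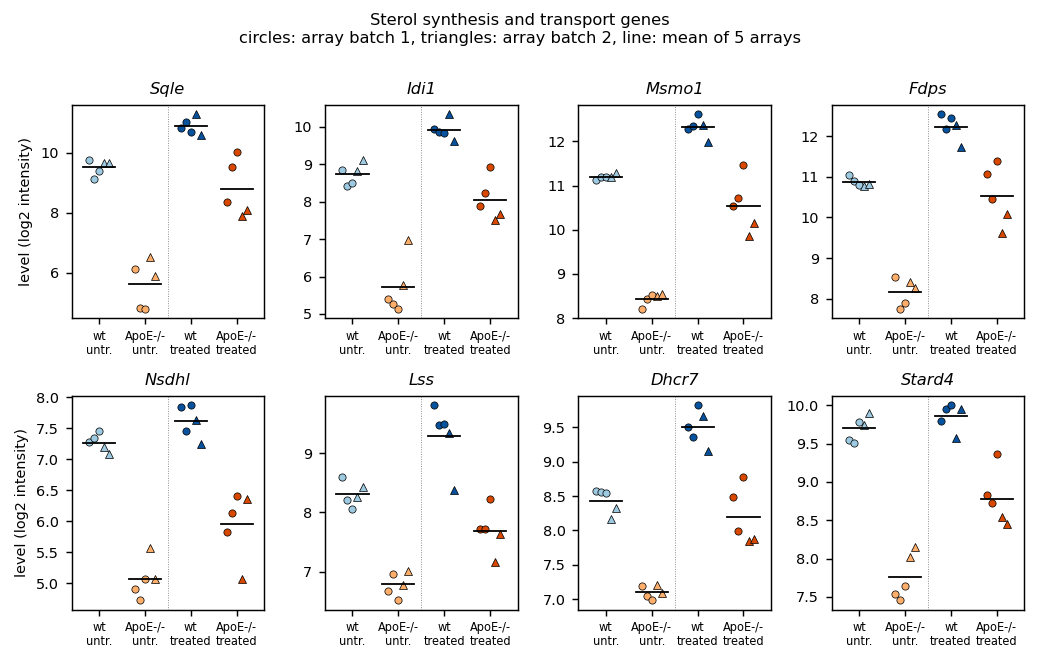
Levels (log2 intensity) of 8 sterol genes on each array, by genotype and treatment, with the mean of 5 arrays as a line and array batches as symbols. In each gene the treated ApoE-/- arrays lie below the treated wild-type arrays, and Sqle has means of 8.78 and 10.88.

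Genes of class II antigen presentation, by which macrophages, dendritic and B cells show peptides to T cells, were higher in treated ApoE-/- livers for 7 of 9 measured members, against 3.55% of all genes. The same 7 were higher in untreated mice, and the medians were 0.86 treated and 0.93 untreated. None of the 9 passed the test of a change. In whole liver, more cells of a type and more RNA per cell cannot be told apart.

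H2-Eb1, a class II beta chain, had levels of 8.52, 8.15, 8.61, 8.31 and 8.13 in wild type and 9.84, 9.43, 9.99, 10.04 and 9.64 in ApoE-/- livers. Every ApoE-/- array was higher, with a difference of 1.44 ± 0.20 (adjusted p = 0.000144, limma) and an untreated difference of 1.10. H2-Ab1 and H2-Aa, the chains of the other class II molecule, were higher by 1.32 ± 0.22 and 1.22 ± 0.21. Cd74, the invariant chain that guards the groove, was higher by 1.27 ± 0.21. Their groups did not overlap. Within batch 1 alone 7 of the 9 passed treated and 7 untreated, with medians of 0.95 and 1.40. Within batch 2 alone 4 passed treated and 0 untreated in limma, with medians of 0.73 and 0.27. With arrays scaled to equal medians 5 passed.

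Kupffer cell and macrophage genes split in treated mice. Of 19 measured, 6 were higher and 1 lower, against 3.55% and 2.66% of all genes, with a median of 0.21. In untreated mice 16 were higher and 1 lower, against 4.63% and 1.61%, with a median of 1.35. The change between conditions was below 0 for 8 and above 0 for 1, against 2.31% and 1.17% of all genes. The treated median was 0.50 within batch 1 alone and -0.23 within batch 2 alone.

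Folr2, a folate receptor of resident macrophages, was among those that remained. Its levels were 6.98, 6.62, 7.19, 6.37 and 6.87 in wild type and 8.84, 8.24, 8.48, 8.22 and 8.04 in ApoE-/- livers. Without overlap, it was higher by 1.56 ± 0.18 (adjusted p = 1.75e-05, limma) treated and 1.40 untreated. Marco, a scavenger receptor, was higher by 1.39 ± 0.26 treated and 1.43 untreated, and Vsig4, a complement receptor of Kupffer cells, by 0.91 ± 0.15 and 1.35. Cd163, a haemoglobin scavenger receptor, was the member that was lower, by -0.87 treated and -2.10 untreated; it was chosen after its values were seen.

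Lyz2, the lysozyme of myeloid cells, had levels of 10.94, 10.58, 10.49, 10.98 and 10.62 in wild type and 11.65, 11.61, 11.81, 11.95 and 11.72 in ApoE-/- livers. It was higher on every ApoE-/- array, by 1.03 ± 0.12 (adjusted p = 2.21e-05, limma), against 2.52 untreated, and the change of -1.49 passed (adjusted p = 5.5e-05). Ifitm6, an interferon-induced membrane protein gene of myeloid cells, was higher by 1.29 ± 0.15 treated and, with no untreated wild-type array above detection, at least 2.58-fold higher untreated.

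Of 11 genes of lipid-associated macrophages, 2 were higher in treated and 8 in untreated mice, against 3.55% and 4.63% of all genes, with medians of 0.18 and 1.61. The change was below 0 for 6 of the 11, against 2.31%. Without both ApoE-/- arrays of batch 2, 0 of the 11 passed in treated mice. Gpnmb, a glycoprotein of lipid-laden macrophages, had levels of 6.31, 7.21, 6.70, 7.02 and 6.91 in treated wild type and 7.94, 8.03, 7.73, 9.13 and 7.60 in treated ApoE-/- livers. The groups did not overlap, with replicate 4 highest, but the difference of 1.25 ± 0.36 passed narrowly (adjusted p = 0.0393, limma). It lost its call when any of 8 of the 10 treated arrays was left out, with adjusted p up to 0.121. The untreated difference was 5.81, and the change was -4.56 (adjusted p = 3.37e-05, limma). Mmp12, a macrophage elastase, was higher by 0.78 ± 0.23 treated, and the call was also lost without any of 8 arrays. Its untreated difference of 3.48 is set against wild-type arrays of which 1 of 5 was above detection, as 2 of 5 were for Gpnmb.

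Lgals3, galectin-3, showed no such separation. Its levels were 11.74, 12.55, 11.80, 12.75 and 12.11 in treated wild type and 12.38, 12.38, 12.16, 11.95 and 11.19 in treated ApoE-/- livers. The groups overlapped, with a difference of -0.18 ± 0.23 (adjusted p = 0.76, limma), against 2.80 ± 0.23 untreated. Mean levels were 8.30 in untreated wild type, 11.10 in untreated ApoE-/- and 12.19 and 12.01 in treated wild-type and ApoE-/- livers, so that both treated means lay above both untreated means. Lpl, lipoprotein lipase, had a treated difference of -0.17 and an untreated one of 2.96, with means of 8.21, 11.17, 11.08 and 10.92 in the same order. Laptm5, a lysosomal protein of blood cells, and Fcer1g, a shared chain of Fc receptors, had treated differences of -0.14 and -0.47 and untreated ones of 1.53 and 1.36.

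Across the 19 Kupffer cell and macrophage genes the median level relative to each gene's mean was -1.79 to -0.88 on untreated wild-type and -0.52 to -0.18 on untreated ApoE-/- arrays. It was 0.52 to 0.70 on treated wild-type and 0.43 to 1.23 on treated ApoE-/- arrays, and every member was detected in each treated group. The 15 hepatocyte genes had 0 calls in limma, 2 at an unadjusted p under 0.05, and a median of -0.04.

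**Figure D3:**
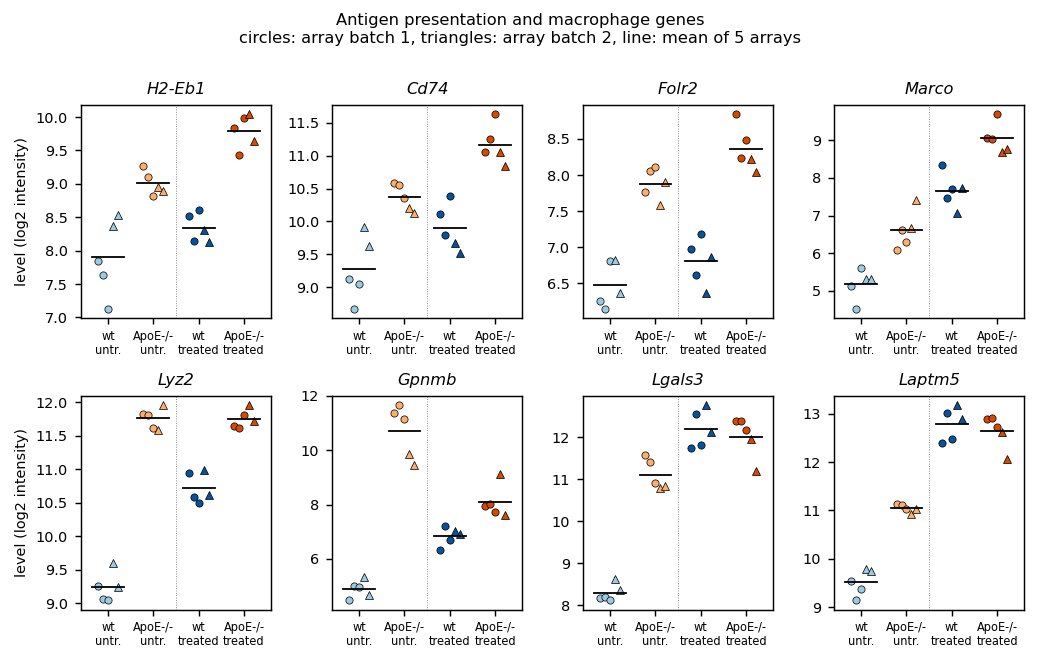
Levels (log2 intensity) of 2 class II and 6 macrophage genes on each array, by genotype and treatment, with means as lines and array batches as symbols. H2-Eb1 and Folr2 separate the genotypes in both conditions, while Lgals3 and Laptm5 overlap between the treated groups, with Lgals3 means of 12.19 and 12.01.

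Of 28 measured genes of Toll-like receptor signalling, 2 were higher in treated and 8 in untreated ApoE-/- livers, against 3.55% and 4.63% of all genes. With equal-median scaling 1 was higher and 1 lower in treated mice. Tlr7 itself had levels of 5.85, 6.44, 5.95, 6.51 and 6.45 in treated wild type and 6.32, 6.48, 6.73, 6.89 and 5.96 in treated ApoE-/- livers. These overlapped, and the difference of 0.23 ± 0.18 did not pass (adjusted p = 0.539, limma), against 1.07 untreated, where 1 of 5 wild-type arrays was above detection. Both Tlr9 probes were below detection on all 10 treated arrays. Myd88, the adaptor of both receptors, had a difference of -0.18 ± 0.17, and Unc93b1, which carries them to endosomes, of 0.16 ± 0.14.

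Tlr2, a receptor for bacterial lipoproteins, had a treated difference of -0.29 and an untreated one of 1.53, a change of -1.81 (adjusted p = 0.00165, limma). Cd14, a co-receptor for lipopolysaccharide, was higher by 0.96 ± 0.23 treated and 1.64 untreated; within batch 2 alone its treated call was lost (0.71, adjusted p = 0.198). Irak2, a kinase of the pathway, was higher by 0.78 ± 0.18 in treated mice and differed by -0.14 in untreated mice. Its call was lost under equal-median scaling (adjusted p = 0.0518) and within batch 1 alone (0.56, adjusted p = 0.323).

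Of 26 acute phase genes, 3 were lower in treated ApoE-/- livers and none higher, against 6 higher and none lower in untreated mice. Over all genes 2.66% were lower treated and 4.63% higher untreated. The 3 lower calls became 0 in limma within batch 1 alone and without both ApoE-/- arrays of batch 2. Socs3, the feedback inhibitor of interleukin-6 signalling, had levels of 9.26, 9.41, 9.71, 9.81 and 9.68 in wild type and 9.61, 8.53, 8.38, 7.84 and 8.03 in ApoE-/- livers. Only ApoE-/- replicate 1 reached the wild-type range. The treated difference was -1.10 ± 0.27 (adjusted p = 0.0179, limma) and the untreated one 0.95 ± 0.27, a change of -2.05 (adjusted p = 0.00481). The treated call was lost within batch 1 alone (-0.62) and without ApoE-/- replicate 4 (adjusted p = 0.0598).

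Lbp, which carries lipopolysaccharide, was lower by -0.32 treated and higher by 0.59 untreated, with the treated call lost without any of 8 arrays. Apcs, serum amyloid P, was lower by -0.87 ± 0.22 treated and had an untreated difference of -0.01. Its treated call was lost without wild-type replicate 4 or ApoE-/- replicate 5, with adjusted p up to 0.0582. Saa3 and Lcn2, inflammatory secreted proteins, had treated differences of 0.45 and -0.05 and untreated ones of 3.30 and 2.85.

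Of 25 cytokine, chemokine and adhesion genes, 3 were higher and 2 lower in treated ApoE-/- livers, against 3.55% and 2.66% of all genes. In untreated mice 10 were higher and 1 lower, against 4.63% and 1.61%, and 2 passed in the same direction in both. The treated direction differed by batch in limma, with 4 higher and 0 lower within batch 1 alone. Within batch 2 alone 0 were higher and 3 lower. Ccl5, a T cell attractant, had levels of 7.75, 8.41, 8.62, 8.86 and 8.64 in wild type and 9.65, 9.69, 9.46, 9.37 and 9.21 in ApoE-/- livers, higher on every array by 1.02 ± 0.21 (adjusted p = 0.00598, limma). Vcam1, a leukocyte adhesion molecule, was higher by 0.92 ± 0.17 and Ccl3, a monocyte attractant, lower by -1.01 ± 0.20. Within batch 2 alone the calls of Ccl5 (0.54, adjusted p = 0.116, limma) and Vcam1 (0.86, adjusted p = 0.0514) were lost. Within batch 1 alone that of Ccl3 was lost (-0.60, adjusted p = 0.114). Ccl5 and Vcam1 were also higher in untreated mice, by 0.72 and 1.89. Ccl3 was near background there, detected on 1 of 5 wild-type and 0 of 5 ApoE-/- arrays. Among 8 T and NK cell genes 3 were higher in treated mice, against 3.55% of all genes, and 0 in limma within batch 2 alone. None was called in untreated mice. There 3 of the 8 had no wild-type array above detection and 2 no ApoE-/- array, so an absent call says little. Cd3e, part of the T cell receptor complex, rose by 0.64 ± 0.15 on low levels of 5.19 to 6.31, and a second probe of the gene, detected on all 10 treated arrays, gave 0.13. None of the 8 passed with arrays scaled to equal medians.

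Other cell types gave few calls. Of 14 liver endothelial and 20 stellate and matrix genes, 0 and 0 passed in treated mice in limma, against 6 and 8 higher in untreated mice. Over all genes 4.63% were higher in untreated mice. At an unadjusted p under 0.05 it was 4 and 5 in treated mice, against 19.2% of all genes. With batch as a block 2 of the 20 stellate and matrix genes were higher and 1 lower. Lyve1, a hyaluronan receptor of sinusoids, and Col3a1, a fibrillar collagen, had treated differences of -0.29 and 0.32 and untreated ones of 1.67 and 1.52. Of 10 neutrophil genes 0 passed in limma in treated mice, 2 at an unadjusted p under 0.05, and 4 were higher in untreated mice.

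Some genes of glucose production and insulin signalling differed under treatment. Of 20 measured, 6 were higher in treated ApoE-/- livers, against 3.55% of all genes, and 0 in limma in untreated mice, with 1 there at an unadjusted p under 0.05. The change was above 0 for 4 of the 20 and below 0 for 0, against 1.17% and 2.31% of all genes. Ppp1r3g, a subunit that directs a phosphatase to glycogen, had levels of 4.88, 4.77, 4.87, 6.69 and 5.73 in treated wild type and 9.57, 10.27, 9.85, 11.01 and 11.11 in treated ApoE-/- livers. The groups lay far apart, and the difference was 4.97 ± 0.35 (adjusted p = 1.21e-08, limma), against 0.27 untreated. A second probe of the gene, dimmer, gave 1.22. The untreated means were 11.11 in wild type and 11.38 in ApoE-/- livers, so the treated wild-type arrays were the low ones.

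G6pc, which releases free glucose, followed the same order. Its levels were 11.73, 11.32, 10.40, 11.05 and 11.11 in treated wild type and 12.14, 12.94, 12.82, 13.20 and 13.17 in treated ApoE-/- livers. The difference without overlap was 1.74 ± 0.20 (adjusted p = 1.79e-05, limma), with untreated means of 13.40 and 13.16. Tat, a glucocorticoid-induced aminotransferase, was higher by 1.42 ± 0.24 treated and 0.05 untreated. Slc25a25, a mitochondrial ATP carrier, was higher by 1.87 ± 0.26 and had an untreated difference of -0.18.

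Igfbp1, a binding protein that insulin represses, had levels of 9.82, 9.36, 8.26, 10.35 and 9.58 in wild type and 10.10, 11.79, 11.15, 12.71 and 12.63 in ApoE-/- livers. ApoE-/- replicate 1 fell inside the wild-type range. The difference was 2.20 ± 0.46 (adjusted p = 0.00655, limma), and without both ApoE-/- arrays of batch 2 it was 1.54 and did not pass (adjusted p = 0.0761).

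Among 21 genes of fatty acid oxidation and ketogenesis 6 were higher in treated ApoE-/- livers and 1 in untreated ones, and among 12 other targets of the fatty acid sensor PPAR-alpha it was 6 and 1. Over all genes 3.55% were higher in treated and 4.63% in untreated mice. Acaa1b, a peroxisomal thiolase, had levels of 12.64, 12.33, 12.53, 11.99 and 12.24 in wild type and 13.32, 13.76, 13.56, 13.45 and 13.64 in ApoE-/- livers. It was higher on every array, by 1.20 ± 0.15 (adjusted p = 3.94e-05, limma), with untreated means of 14.57 and 14.51. Angptl4, a fasting-induced inhibitor of lipoprotein lipase, was higher by 1.08 ± 0.15, and Cpt2, the inner carnitine transferase, by 0.48 ± 0.09. Their untreated differences were -0.17 and -0.07, and both changes passed.

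Pdk4, which shuts off pyruvate oxidation, was higher in both conditions. Its treated levels were 6.50, 7.18, 6.03, 6.63 and 6.16 in wild type and 6.80, 8.80, 8.48, 9.86 and 9.28 in ApoE-/- livers, with replicate 1 again in the wild-type range. The difference was 2.15 ± 0.42 (adjusted p = 0.00398, limma) treated and 1.41 untreated; within batch 1 alone it was 1.46 and did not pass (adjusted p = 0.136). Acot1, a fatty acyl thioesterase, was higher by 1.73 ± 0.35 treated, with -0.01 untreated.

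The 12 PPAR-alpha targets had a median level relative to each gene's mean of 0.45 to 0.85 on untreated and -1.54 to -0.73 on treated wild-type arrays. ApoE-/- arrays gave 0.12 to 1.15 untreated and -0.75 to -0.01 treated. Of 14 lipid droplet genes 6 were higher in treated mice, against 3.55% of all genes. In untreated mice 3 of the 14 were higher, against 4.63%, and 2 passed in both. Fitm2, which partitions triglyceride into droplets, was higher by 0.91 ± 0.16 treated and differed by -0.06 untreated. Pnpla2 was higher in both, by 0.53 and 0.45. With arrays scaled to equal medians the higher counts were 2 for oxidation, 5 for PPAR-alpha targets, 4 for lipid droplets and 5 for glucose production and insulin signalling. In the same order they were 3, 1, 1 and 4 within batch 1 alone and 2, 6, 3 and 6 within batch 2 alone, fits that hold fewer arrays.

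Of 20 lipid synthesis genes 5 were higher and 3 lower in treated ApoE-/- livers, against 3.55% and 2.66% of all genes. The lower side was 1 gene with equal-median scaling, 0 within batch 1 alone and 1 within batch 2 alone, with 4, 3 and 5 higher. Scd1, which desaturates fatty acids, had levels of 12.47, 12.62, 13.56, 13.19 and 13.28 in wild type and 14.34, 14.42, 14.44, 14.42 and 14.39 in ApoE-/- livers. The narrow ApoE-/- range lay above all wild-type arrays, at 1.38 ± 0.19 (adjusted p = 0.000118, limma) treated and 1.01 untreated. Me1, a source of NADPH, was higher by 1.25 ± 0.19 and Acacb, the mitochondrial acetyl-CoA carboxylase, by 1.25 ± 0.27, against 0.09 and 0.20 untreated.

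**Figure D4:**
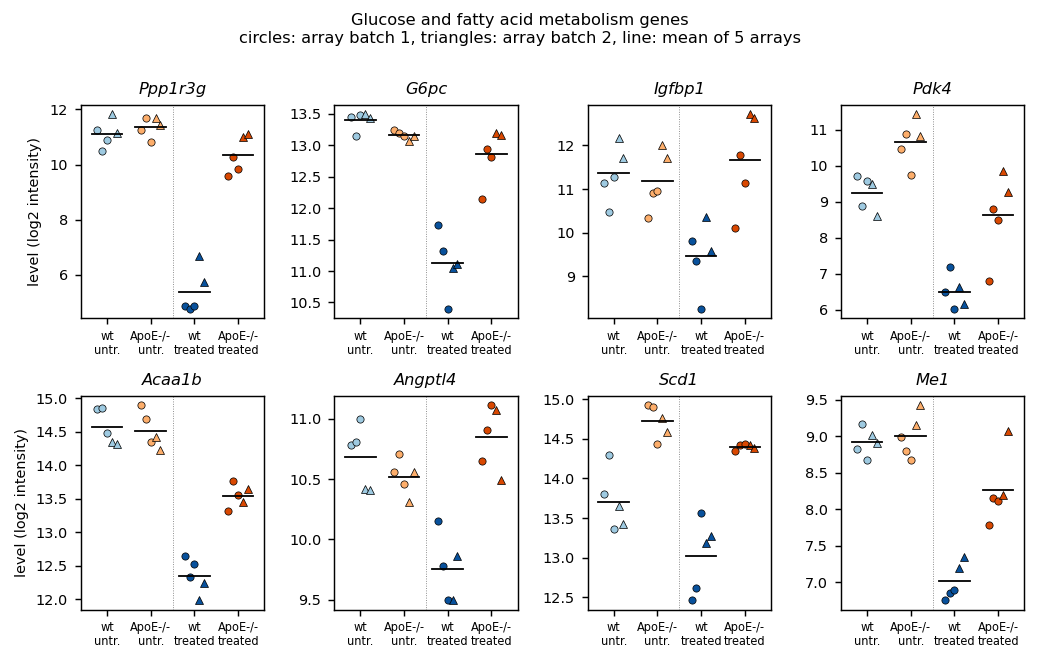
Levels (log2 intensity) of 8 genes of glucose and fatty acid metabolism on each array, by genotype and treatment, with means as lines and array batches as symbols. For Ppp1r3g and G6pc the treated wild-type arrays are the low group, while Scd1 is higher in ApoE-/- livers in both conditions.

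The largest rise of all was in Cyp2a4, a steroid hydroxylase that is typical of female liver and, like Apoe, encoded on chromosome 7. Its levels were 4.66, 5.33, 4.86, 4.79 and 6.81 in wild type and 10.97, 11.51, 11.54, 11.77 and 11.41 in ApoE-/- livers, 6.15 ± 0.44 higher (adjusted p = 1.38e-08, limma). The untreated difference of 4.85 is set against wild-type arrays of which 1 of 5 was above detection. Cyp2a5 is a near-identical gene, so signal of one may reach the other's probe; its 5 probes gave 0.89 to 1.15, and the call of the one tested was lost without any of 8 arrays.

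Cib3, a calcium-binding protein gene, was higher by 2.90 ± 0.40 treated and 1.96 untreated. Cyp4a12a and Cyp4a12b, near-identical fatty acid hydroxylases typical of male liver, were higher by 1.96 ± 0.33 and 2.77 ± 0.50, against 0.73 and 0.83 untreated. Within batch 1 alone neither passed (adjusted p = 0.159 and 0.11). Of 17 male-biased liver genes 4 were higher in treated mice, against 3.55% of all genes, and none in untreated mice. Their treated median was -0.02 within batch 1 alone and 1.09 within batch 2 alone.

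Several of the largest rises were in genes induced by stress or interferon, named for their size and not as a group. Ddit4, an inhibitor of mTOR signalling, was higher by 1.94 ± 0.31 without overlap, and Gbp2b, an interferon-induced GTPase, by 1.88 ± 0.33. Of 9 other interferon-gamma-inducible GTPase genes 0 passed in limma, 1 at an unadjusted p under 0.05, with a median of 0.10. Of 19 genes of the unfolded protein and integrated stress responses 3 were higher, against 3.55% of all genes, with a median of -0.01. Within batch 1 alone or without both ApoE-/- arrays of batch 2, 0 of the 19 passed in limma. Atf3, a stress-induced transcription factor, had levels of 7.61, 7.36, 6.83, 8.16 and 7.56 in wild type and 6.52, 9.81, 9.84, 10.22 and 10.65 in ApoE-/- livers. Replicate 1 of ApoE-/- was the lowest of all 10 arrays. The difference of 1.90 ± 0.55 (adjusted p = 0.0429, limma) lost its call without any of 8 arrays. Gadd45a, a DNA damage response gene, and Fosb, an immediate early transcription factor, had treated differences of 1.46 and 1.87 and untreated ones of -0.80 and -0.75. Their changes lost their calls within batch 1 alone and without both ApoE-/- arrays of batch 2, and that of Gadd45a also without any of 8 arrays, with adjusted p up to 0.0838. Of 12 heat shock genes 4 were higher, against 3.55% of all genes, among them Hspa8, the constitutive chaperone, by 0.52 ± 0.11. With arrays scaled to equal medians 1 of the 12 passed.

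Among the largest falls outside the sterol pathway, Erdr1, a gene at the sex chromosome boundary, differed by -2.79 ± 0.77 with overlapping groups and lost its call without any of 6 arrays. Lrtm1, a leucine-rich repeat membrane protein gene, differed by -2.03 ± 0.36 treated and -1.63 untreated. Dnaic1, a dynein chain of cilia, had levels of 7.40, 6.77, 6.23, 7.73 and 6.70 in wild type and 5.10, 4.77, 4.79, 5.11 and 5.12 in ApoE-/- livers. Its groups did not overlap, with a difference of -1.99 ± 0.27 treated (adjusted p = 0.000104, limma). In untreated mice it was at background, detected on 2 of 5 wild-type and 0 of 5 ApoE-/- arrays, so no size is given there.

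**Figure D5:**
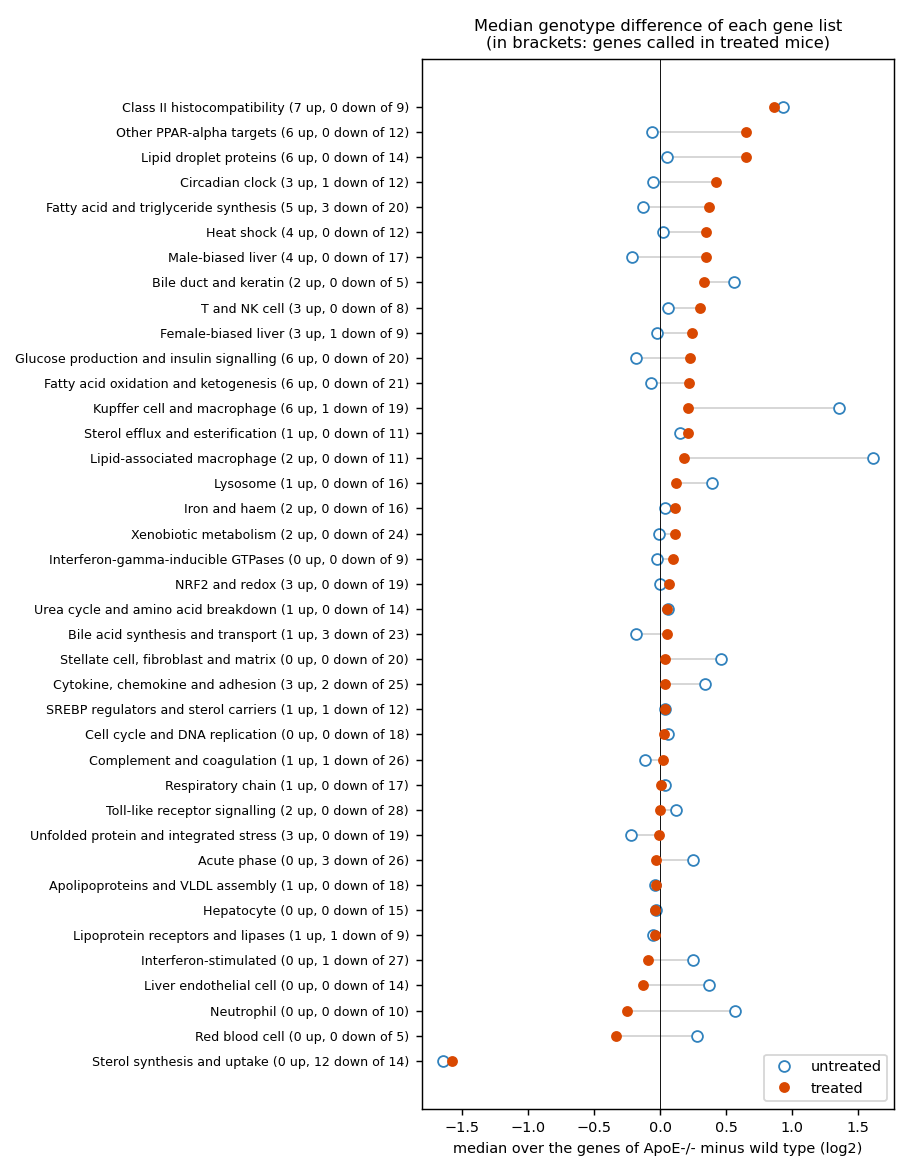
Median difference between ApoE-/- and wild-type livers (log2) over each gene list with at least 5 measured genes, in treated (filled) and untreated (open) mice, with the treated counts in brackets. With both array batches pooled, sterol synthesis (-1.57 and -1.64) and class II genes (0.86 and 0.93) have close medians. Macrophage lists lie far apart (0.21 and 1.35 for Kupffer cell and macrophage genes). The class II medians are 0.95 and 1.40 within batch 1 alone, and 0.73 and 0.27 within batch 2 alone.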

How the data were processed

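Per the labels' protocols, liver RNA was purified on RNeasy columns, converted to cRNA carrying biotin and measured on an Illumina BeadChip for mouse. The deposited non-normalized table holds a linear signal intensity for each probe and array, and beside it the detection p-value that the authors deposited. The submitters' processing notes list GenomeStudio and BeadStudio; their versions are not given in the sources used here. As an alternative, the authors' processed intensity values in the deposited series matrix were used.

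The neqc function of limma 3.58.1 (R 4.3.3) was applied to all 20 arrays together: background was corrected by normexp, using control levels inferred from the detection p-values, an offset of 16 was added, and arrays were quantile normalised. Probes with detection p under 0.05 on at least 5 of the 10 treated arrays were kept. For each gene the probe with the highest mean was used, and unnamed probes stayed as their own entry, which left 9534 named and 2181 unnamed. Symbols came from the platform's probe table, updated through a RefSeq gene table (GRCm38.p6) that was used otherwise for gene order and promoters only. A model of 4 group means was fitted to all 20 arrays, which share one estimate of the spread, with moderated statistics and Benjamini-Hochberg adjustment over all tested genes. Contrasts were ApoE-/- minus wild type in treated mice, the same in untreated mice, and their difference. Where a group had no array above detection, its level was floored on each array at the dimmest detected probe before a lower bound of the fold was taken. The fit was tested on simulated data. The number of arrays limits the precision.

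The members, gene lists, naming rule and tests were chosen with earlier results of these data known, so patterns already seen in them are no independent support. Named were Apoe, Tlr7, Tlr9, Myd88 and Unc93b1, the 10 largest rises and falls, genes strongest in both conditions or in the change, called neighbours of Apoe, and some called members of each list. Alternatives covered background correction, scaling, the authors' values, detection filters, probe choice, batch, the statistics and leaving out arrays. Leaving out both treated ApoE-/- arrays of batch 2 was added after seeing the data. Replicate numbers were not used to pair the samples in the main fit. The deviations of same-numbered treated arrays correlated at 0.03 to 0.31, and not every pair exceeded 0.1. Such correlations cannot tell whether same-numbered samples were paired. Genes not measured on the probes used are not analysed here.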

Additional observations from a re-analysis of the deposited data

Results flagged for a closer look

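Pmvk, Tm7sf2, Cd163 and Pnpla2 were not screened here. The treated genotype difference minus the untreated one passed in limma for 32 of the other genes named. Some were named for the change itself, from both sides, so the 16 above 0 and 16 below 0 follow from that choice; over all genes it was 1.17% above and 2.31% below. Below 0 were macrophage and inflammatory genes with -4.56 for Gpnmb, -3.13 for Lpl, -2.98 for Lgals3, -2.89 for Lcn2, -2.84 for Saa3, -2.71 for Mmp12, -2.05 for Socs3, -1.83 for Fcer1g, -1.81 for Tlr2, -1.67 for Laptm5, -1.49 for Lyz2, -0.98 for Vcam1 and -0.90 for Lbp. The sinusoidal gene Lyve1 changed by -1.95, the collagen gene Col3a1 by -1.19 and the dynein gene Dnaic1 by -1.70. The value of Dnaic1 rests on untreated levels at background, on 2 of 5 wild-type and 0 of 5 ApoE-/- arrays detected, and those of Mmp12 and Gpnmb on untreated wild-type levels detected on 1 and 2 of 5.

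Above 0 were genes of glucose and lipid metabolism with 4.70 for Ppp1r3g, 2.38 for Igfbp1, 2.05 for Slc25a25, 1.98 for G6pc, 1.37 for Tat, 1.25 for Acaa1b, 1.25 for Angptl4, 1.16 for Me1, 0.97 for Fitm2 and 0.54 for Cpt2. The response genes Fosb and Gadd45a changed by 2.63 and 2.25 (Gadd45a lost its call without any of 8 arrays), Cyp2a5 by 1.31, Stard4 by 0.87, the neighbour gene Nectin2 by 0.80 and Cd3e by 0.76, the last from untreated levels detected on 2 and 1 of 5 arrays.

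In 10 of 154 groups of 5 treated arrays, 1 array stood apart from the others; chance alone flags about 1 group in 20. Replicate 1 of treated ApoE-/- was the low array for 4 genes, at 6.52 for Atf3 (next 9.81), 6.84 for Gadd45a (next 9.38), 10.85 for Slc25a25 (next 11.70) and 11.40 for Insig2 (next 12.25). Replicate 4 of treated ApoE-/- was high for Gpnmb at 9.13 and replicate 3 for Vsig4 at 10.63. In treated wild type, replicate 4 was high for Cd14 at 7.43, replicate 5 high for Cpt2 at 11.91, replicate 1 low for Lyve1 at 8.19 and replicate 3 low for Vcam1 at 8.16.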

How the results depend on the processing

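The liver marker genes, Tlr9, Pmvk, Tm7sf2, Cd163 and Pnpla2 were not recomputed. For each other named gene 1 value was recomputed, the treated difference or, for genes named for a change between conditions, that change. All kept their direction under the alternatives run except Tlr7 (-0.055 within batch 2 alone), Unc93b1 (-0.21 within batch 2 alone) and Myd88 (0.15 within batch 1 alone and 0.14 without both treated ApoE-/- arrays of batch 2), and none of these passed in any of those fits; the cause was not tested. Calls were lost for 23 genes within batch 1 alone, for 14 within batch 2 alone, for 14 without both treated ApoE-/- arrays of batch 2, for 10 with arrays scaled to equal medians and for 8 with no detection filter, fits that hold fewer arrays, another scale or more tests.

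The treated count of 728 became 307 within batch 1 alone, 1107 with a replicate block, 1220 with array weights, 360 with the treated arrays normalised and fitted alone, 416 at 1.5-fold or more and 442 without both treated ApoE-/- arrays of batch 2. Leaving out 1 treated array at a time gave 459 to 1060. The untreated count of 731 became 146 within batch 2 alone and ranged from 695 to 809 with 1 treated array left out. Treated arrays enter the untreated comparison only through the shared spread, so that range says little about the untreated calls. No untreated array was left out singly. The count of changed differences, 408, became 625 with equal medians, 262 with no detection filter, 160 within batch 1 alone and 628 with a replicate block. It was 646 with array weights and 228 without both treated ApoE-/- arrays of batch 2, and ranged from 259 to 649 with 1 treated array left out. The 138 genes called alike in both conditions became 50 within batch 2 alone and ranged from 112 to 157 with 1 treated array left out. The cause of these shifts was not tested, beyond the fewer arrays or stricter rule that some fits hold. With equal medians 86.6% of untreated calls were higher, against 74.1%. Low signal over background limits genes such as Clasrp and Cd3e, whose levels lie near the detection limit.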

Other observations

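Bile acid synthesis and transport genes gave 1 higher and 3 lower calls of 23 measured in treated ApoE-/- livers, with a median of 0.05; over all genes 3.55% were higher and 2.66% lower, and 4.63% and 1.61% in untreated mice. Cyp39a1, an oxysterol hydroxylase of bile acid synthesis, was lower by -1.09 ± 0.23 (adjusted p = 0.00748, limma), with wild-type levels of 5.69 to 6.75 against 4.72 to 5.68 in ApoE-/- livers. The ranges nearly touched without overlap, and 3 of the 5 ApoE-/- arrays were above detection. Its untreated difference was -0.18.

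Over all genes 3.55% were higher and 2.66% lower in treated mice, and 4.63% and 1.61% in untreated mice. Of 12 circadian clock genes 3 were higher and 1 lower in treated ApoE-/- livers, and 0 were higher and 1 lower with equal-median scaling. Interferon-stimulated genes gave 0 higher and 1 lower of 27 in treated mice, against 5 higher and 1 lower in untreated mice. Lysosome genes gave 1 higher of 16, against 8 in untreated mice. Complement and coagulation genes gave 1 higher and 1 lower of 26, near the shares over all genes, and of 9 female-biased liver genes 3 were higher and 1 lower.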
